A study of Mus musculus with 16 samples.

Results

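AP-1 is a family of dimeric transcription factors, and 9 genes that encode its subunits are described here: Fos, Fosb, Fosl1 and Fosl2 of the FOS family, Jun, Junb and Jund of the JUN family, Batf, and the small MAF gene Maff. They are 9 of the 29806 gene rows in the expression tables, found by matching each row's Ensembl identifier to its mouse symbol. The genes were chosen by their CPM in these same libraries (counts per 1e6 counts of the library, here scaled by TMM, a correction for library composition), compared over the groups and over the replicate numbers. Their levels are therefore a description, and no p-value is given for any of them. Counts of members past a threshold are a description too and support nothing further. The study, whose title pairs the unfolded protein response with an oncogenic mutation, sequenced RNA from mouse bone marrow. Haematopoietic stem cells (HSC) and the Fcgr-negative fraction of MPP3, multipotent progenitors that lean towards myeloid output, came from mice labelled wild type (the controls) or Jak2V617F (the mutants). Each of the 4 groups had 4 libraries, and the label that numbers the replicates 1 to 4 also numbers the batch. Jak2V617F is an activating change in the kinase that relays cytokine signals. The number of mutant copies, how the allele was introduced, strain, age, any treatment and whether mice were pooled are not stated in the labels used here. A group's 4 libraries are not said to come from separate mice, so p-values measure the spread between these libraries, which may be technical.

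FOS and JUN proteins pair through leucine zippers and bind the AP-1 site or the related cyclic AMP response element (CRE). FOS proteins need a JUN partner to bind DNA, whereas JUN proteins also pair with each other. Fos, Fosb, Jun and Junb are immediate early genes: their transcription starts within minutes of a growth factor, cytokine or stress signal, without new protein synthesis, and their short-lived transcripts decay soon after. JNK and other MAP kinases phosphorylate the proteins, and in blood stem cells JunB has been described as a brake on myeloid expansion. Because the response is so fast, the handling of a tissue before lysis is also known to induce these transcripts.

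The promoters of the 4 immediate early members are shown. Each line gives the 120 bases before the RefSeq transcription start in GRCm38.p6, 5′ to 3′ on the gene's own strand, and capitals mark the CRE core TGACG or, in Jun, the CRE variant TGACATCA.
Fos (chr12:85473770-85473889, plus strand): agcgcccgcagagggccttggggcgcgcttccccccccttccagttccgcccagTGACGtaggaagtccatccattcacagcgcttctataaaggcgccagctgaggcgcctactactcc
Fosb (chr7:19310046-19310165, minus strand): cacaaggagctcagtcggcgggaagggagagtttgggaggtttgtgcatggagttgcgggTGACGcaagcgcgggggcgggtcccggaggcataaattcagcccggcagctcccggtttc
Jun (chr4:95052223-95052342, minus strand): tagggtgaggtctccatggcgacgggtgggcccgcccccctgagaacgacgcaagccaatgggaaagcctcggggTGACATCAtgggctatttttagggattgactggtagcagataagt
Junb (chr8:84978749-84978868, minus strand): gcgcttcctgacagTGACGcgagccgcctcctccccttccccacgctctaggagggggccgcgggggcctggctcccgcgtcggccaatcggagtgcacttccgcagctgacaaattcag
The CRE core began 66 bases before the start in Fos, 60 in Fosb and 106 in Junb, and the variant in Jun began 45 bases before it. Searching both strands of the 300-base windows (250 bases before the start to 50 after), the core TGACG was present in 20.8% of 32851 mouse promoter windows and TGACATCA in 3.62%. Fos also held a second core, from 129 to 125 bases before the start, and the TATA element TATAAA, which 13.6% of windows held, from 33 to 28 bases before it. Jun held a MEF2 box, present in 0.557% of windows, from 33 to 24 bases before the start. Of the other members, Jund and Fosl2 held none of the motifs searched. The Jund window (chr8:70697489-70697788) lies wholly before its gene row, which starts at 70698949. The absence of motifs there may therefore not hold for the start of that row. Batf held a core 98 bases before its start. The second of 3 Maff starts had the full CRE TGACGTCA, held by 1.79% of windows, 29 bases before it. The third had the variant TGACATCA from 45 to 38 bases before it, where Jun also has it, and a core from 122 to 118 bases before it. RefSeq windows were found for 8 of the 9 genes, and Fosl1 had none. A match to letters is a description and does not show that a factor binds there.

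Library totals lay between 33.4 × 1e6 and 41.5 × 1e6 estimated counts, so that even the lowest Fos value rested on 932 counts, while the lowest values of Fosl1, Fosb and Maff rested on 7, 11 and 13. All 9 genes passed the filter on low counts, which kept 14179 genes. Sorting markers separated the cell types: Cd48 stood at 1.74 to 8.67 CPM in HSC libraries and 163 to 334 CPM in MPP3 libraries, and Slamf1 at 30.6 to 60.3 CPM in HSC and 1.00 to 3.54 CPM in MPP3. Jak2 transcript itself ran from 14.9 to 32.5 CPM with all groups overlapping, and counts per gene do not show the base change. Group levels are means ± SD of CPM over the 4 libraries (n = 4), and coordinates are GRCm38.

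Transcripts of Fos, Fosb, Jun and Junb were lower in mutant than in control cells on average, and highest in replicate 1 in every group but 1 (mutant HSC for Junb). Among the 4 same-numbered pairs of HSC libraries and the 4 of MPP3 libraries, Fos, Fosb and Jun were lower in the mutant in 8 of 8 pairs and Junb in 7 of 8, a pattern of 8 of 8 that 3.55% of all tested genes shared. Fosl1, Fosl2 and Batf were lower in 4, 5 and 4 of 8 pairs, and Jund and Maff in 6 of 8. Compared per transcript length by the deposited TPM (transcripts per 1e6 transcripts), Fos and Junb were the most abundant in control HSC at 685 ± 908 and 376 ± 315 TPM. Batf, Jun and Fosb followed at 55.9 ± 2.76, 41.9 ± 35.7 and 13.6 ± 16.3 TPM, and the remaining 4 stood below 5 TPM on average. Fos and Junb overlapped over those 4 libraries (179 to 2044 and 164 to 845 TPM), and Jun lay on both sides of Batf (11.8 to 91.5 and 53.3 to 59.8 TPM).

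**Figure D1:**
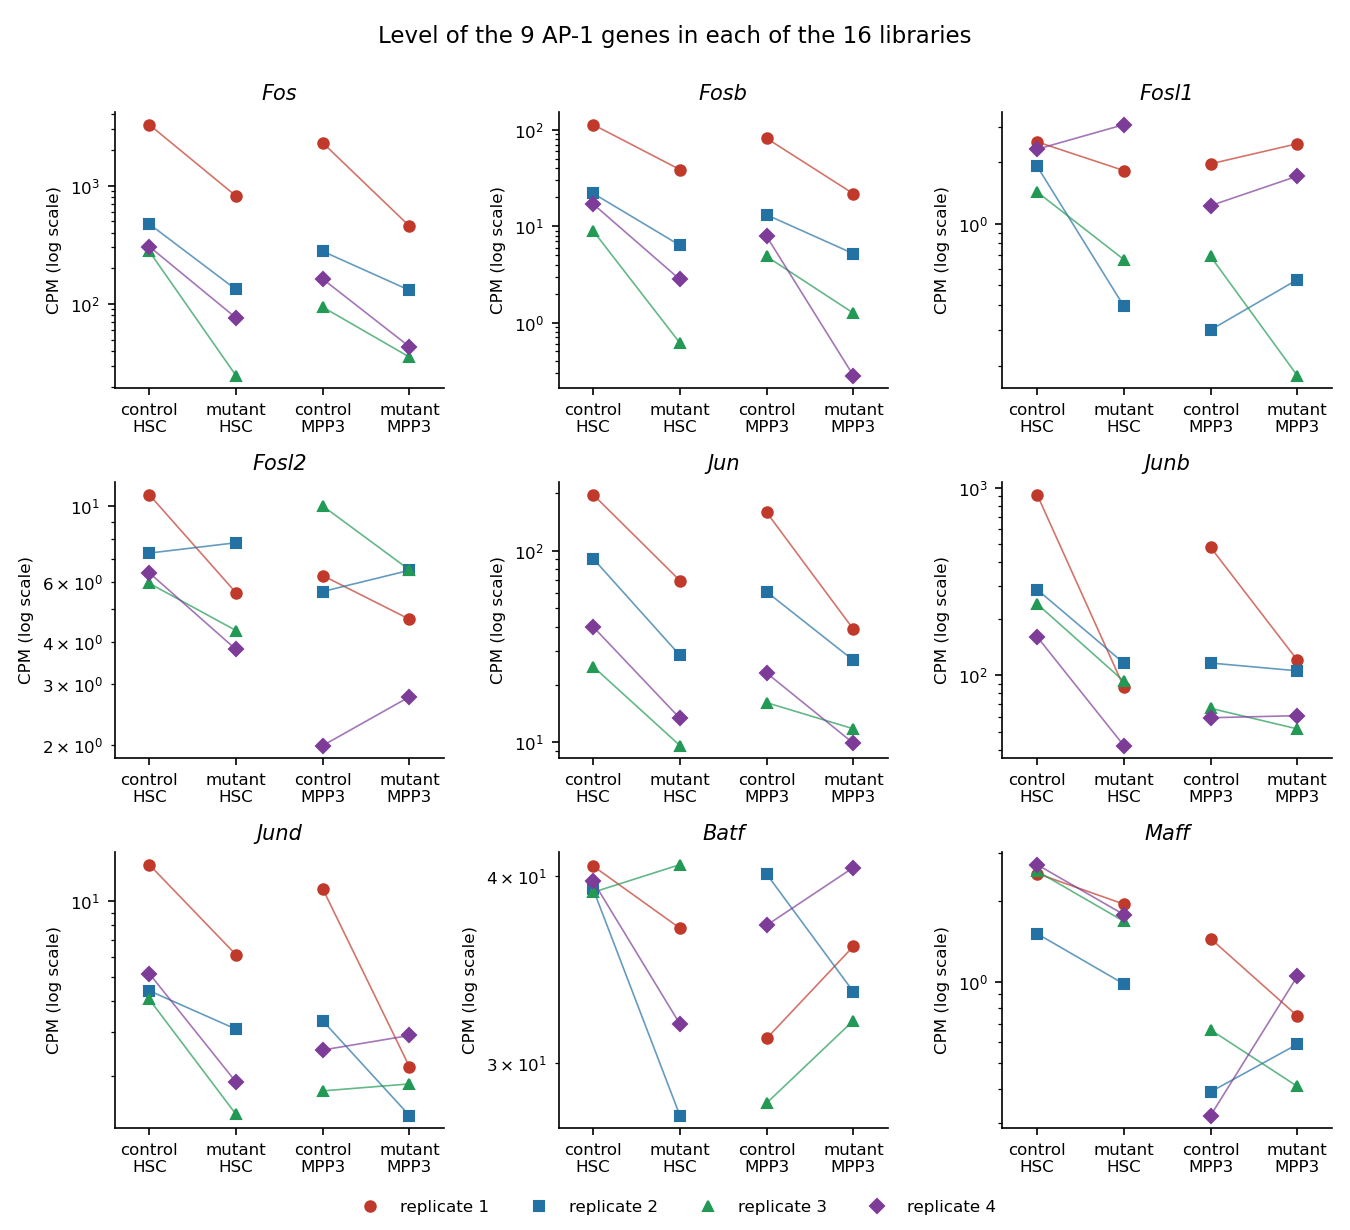
CPM of each AP-1 gene (vertical axis, log scale, a range of its own in each panel) in the 4 groups, with 1 point per library, coloured by replicate number, and lines joining control and mutant libraries of the same number. Lines for Fos, Fosb and Jun fall in all 8 pairs, replicate 1 lies on top in all 4 groups for these 3 genes, and Batf stays between 27.6 and 40.7 CPM.

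Fos (ENSMUSG00000021250, chr12:85473890-85477273, plus strand), the founding FOS subunit, had 3266, 473, 278 and 305 CPM in control HSC replicates 1 to 4. In mutant HSC it had 816, 132, 24.8 and 76.2 CPM. Replicate 1 lay above the rest in both groups, and the mutant libraries stood at 25.0%, 28.0%, 8.92% and 25.0% of the control library of the same number. In control MPP3 the values were 2294, 278, 94.1 and 162 CPM, and in mutant MPP3 454, 131, 35.6 and 43.5 CPM. The mutant was again lower within each number, at 19.8% to 46.9% of the control, although the ranges overlapped because replicate 1 of the mutant exceeded replicates 2 to 4 of the control. Group means ran in the order control HSC (1081 ± 1459 CPM), control MPP3 (707 ± 1061 CPM), mutant HSC (262 ± 372 CPM) and mutant MPP3 (166 ± 197 CPM), and no neighbours in that order were further apart than their spread.

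The log2 fold change of Fos in mutant HSC was -2.04 ± 1.40 (SE) in the model of groups alone, and -2.32 ± 0.25 in a second model that also held the replicate number as a block, which compares libraries within a batch. In MPP3 the same values were -2.09 ± 1.40 and -1.67 ± 0.24. The error shrank more than 5-fold in each cell type once the batch was in the model. Without the block, single libraries moved these values widely: Fos in mutant HSC was -0.38 without control HSC replicate 1 and -3.80 without mutant HSC replicate 1, and in mutant MPP3 it was -0.09 without control MPP3 replicate 1 and -3.35 without mutant MPP3 replicate 1. The fold changes stayed negative with each of the 16 libraries left out in turn.

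Fosb (ENSMUSG00000003545, chr7:19302696-19310051, minus strand), a FOS subunit induced alongside Fos, had 114, 22.0, 8.95 and 17.0 CPM in the controls and 38.8, 6.34, 0.613 and 2.80 CPM in the mutants of HSC. In MPP3 the controls had 82.0, 13.2, 4.86 and 7.84 CPM and the mutants 21.8, 5.19, 1.25 and 0.281 CPM. Replicate 1 was again highest in all 4 groups, and the mutant stood at 6.84% to 34.1% of the control of the same number in HSC and 3.58% to 39.5% in MPP3. The lowest of these percentages rests on 11 counts in mutant MPP3 replicate 4. With the block the log2 fold changes of Fosb were -2.34 ± 0.47 in HSC and -2.14 ± 0.47 in MPP3. Without the block they were -1.73 and -1.92. Leaving out single libraries then moved them between -3.64 and -0.35 in HSC and between -3.60 and -0.26 in MPP3.

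Fosl1 (ENSMUSG00000024912, chr19:5447547-5455946, plus strand) and Fosl2 (ENSMUSG00000029135, chr5:32135801-32157842, plus strand) encode the FRA-1 and FRA-2 proteins, which lack the strong activation domain of c-Fos and are typically induced later. Fosl1 ran from 0.393 to 3.07 CPM in HSC and from 0.179 to 2.47 CPM in MPP3, with mutant and control overlapping in both. Part of Fosl1 lies across from Ccdc85b, which stood at 0.142 to 1.05 CPM, on the opposite strand, and the labels do not say whether reads were counted by strand. Fosl2 had 10.8, 7.28, 5.93 and 6.37 CPM in control HSC, 5.57, 7.80, 4.32 and 3.80 CPM in the mutant, and 1.99 to 10.0 CPM over the MPP3 libraries. Its log2 fold changes in the mutant, -0.50 ± 0.42 in HSC and -0.23 ± 0.42 in MPP3, were little larger than their errors or below them, and replicate 1 was highest only in control HSC.

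Jun (ENSMUSG00000052684, chr4:95049034-95052222, minus strand) encodes c-Jun, the partner of Fos and a JNK substrate. In HSC its 4 control libraries had 196, 90.8, 24.8 and 40.0 CPM and its 4 mutant libraries 69.7, 28.4, 9.62 and 13.3 CPM. The mutant stood at 35.6%, 31.3%, 38.7% and 33.3% of the control of the same number, the narrowest range of the 4 immediate early members in HSC. In MPP3 the controls had 158, 60.9, 16.1 and 23.0 CPM and the mutants 38.9, 26.8, 11.8 and 9.89 CPM, or 24.6% to 73.0% of the control. The block gave -1.53 ± 0.19 in HSC and -1.20 ± 0.19 in MPP3, next to -1.54 ± 0.86 and -1.56 ± 0.86 without it.

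For Junb (ENSMUSG00000052837, chr8:84974484-84978718, minus strand) every mutant HSC library lay below every control HSC library. The share of all genes that separated in this way is not given here. Control HSC had 919, 287, 240 and 161 CPM, and mutant HSC 86.7, 116, 93.0 and 42.2 CPM. Replicate 1 was the highest control and yet not the highest mutant library, so that the mutant level was 9.43% of the control in replicate 1 and 26.3% to 40.5% in the others. In MPP3 the controls had 481, 116, 66.7 and 59.4 CPM and the mutants 121, 106, 51.8 and 60.9 CPM. There the gap lay mostly in replicate 1, where the mutant stood at 25.1% of the control; it stood at 90.9%, 77.7% and 103% in replicates 2 to 4. The fitted log2 fold change of Junb in HSC was -2.25 ± 0.72 without the block and -1.89 ± 0.37 with it. The MPP3 values were -1.09 ± 0.70 and -0.65 ± 0.37, and leaving out the replicate 1 libraries of all groups brought the blocked value to -0.12 ± 0.21. The 3′ end of Junb overlaps 351 bases of Prdx2 on the opposite strand, which stood at 381 to 507 CPM in all libraries.

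Jund (ENSMUSG00000071076, chr8:70698949-70700616, plus strand), the JUN member usually transcribed at a steady level, was low here at 1.40 to 14.0 CPM. Control HSC had 14.0, 4.39, 4.06 and 5.14 CPM, whereas mutant HSC had 6.11, 3.09, 1.41 and 1.90 CPM. Replicate 1 was 3.08 times the mean of the other 3 in control HSC and 4.40 times in control MPP3, and 1.06 times in mutant MPP3. In HSC the mutant was lower in 4 of 4 pairs, with -1.14 ± 0.42 on the log2 scale with the block, and in MPP3 in 2 of 4. Without the block Jund also had -1.14 in HSC, and -1.69 to -0.50 with single libraries left out. Its antisense neighbour Gm11175 reached at most 0.318 CPM.

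Batf (ENSMUSG00000034266, chr12:85686669-85709087, plus strand), which pairs with JUN proteins and is known from lymphoid and dendritic cell differentiation, was the steadiest member. It had 40.6, 39.2, 39.0 and 39.7 CPM in control HSC, 36.9, 27.6, 40.7 and 31.8 CPM in HSC of the mutants, 31.1, 40.1, 28.2 and 37.1 CPM in control MPP3 and 35.9, 33.5, 32.0 and 40.6 CPM in mutant MPP3. All groups overlapped, and its mutant log2 fold changes were -0.21 ± 0.14 in HSC and 0.06 ± 0.14 in MPP3. Maff (ENSMUSG00000042622, chr15:79346621-79359076, plus strand), a small MAF protein without an activation domain, differed by cell type instead. It had 2.52, 1.51, 2.58 and 2.72 CPM in control HSC and 1.45, 0.390, 0.663 and 0.319 CPM in control MPP3, a log2 fold change of -1.72 ± 0.62. These ranges did not overlap, and the share of all genes separated in this way is not given here. In mutants the change from HSC to MPP3 was -1.19 ± 0.61, and MPP3 was the lower in 4 of 4 pairs in both genotypes.

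The replicate number held a larger share of the spread than genotype in all 9 members, by a small margin in Batf (4.99% against 4.72%), although it has 3 degrees of freedom and genotype 1. Per degree of freedom genotype was the larger in 6 members, among them Fos (26.7% against 22.6%) and Junb (30.9% against 12.1%), and the batch in Fosl1, Fosl2 and Maff. Genotype was also the larger in the medians over all genes tested (8.12% against 5.40%), so this order is not particular to the members. In a breakdown of the sum of squares of log2 CPM over the 16 libraries, the batch held 67.7% for Fos, 59.0% for Fosb, 67.0% for Jun, 36.4% for Junb and 43.8% for Jund, where the median of all genes tested was 16.2%. Genotype held 26.7%, 29.0%, 27.3%, 30.9% and 27.2% for the same 5 genes, with a median of 8.12% over all genes. After batch, genotype, cell type and the interaction of the last 2, 2.43% was left for Fos and 2.82% for Jun, next to a median of 40.7%. Fosl1 and Fosl2 had 58.0% and 45.3% in the batch with only 3.65% and 6.29% in the genotype. Batf left 69.8% to none of these factors, and Maff had 64.9% in the cell type. Replicate 1 was 9.27, 10.5, 12.9 and 6.50 times the mean of replicates 2 to 4 for Fos in the control and mutant HSC, and then the control and mutant MPP3. It was the highest library in all 4 groups for 3 of the 9 members, for 11 of the 20 other fast-response genes tested and for 0.966% of all genes tested. The members were chosen by their CPM over the groups and replicate numbers. Standing apart from the median gene in these shares can follow from that choice and supports nothing further. In bulk libraries, fewer cells with a transcript and less transcript per cell cannot be told apart.

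**Figure D2:**
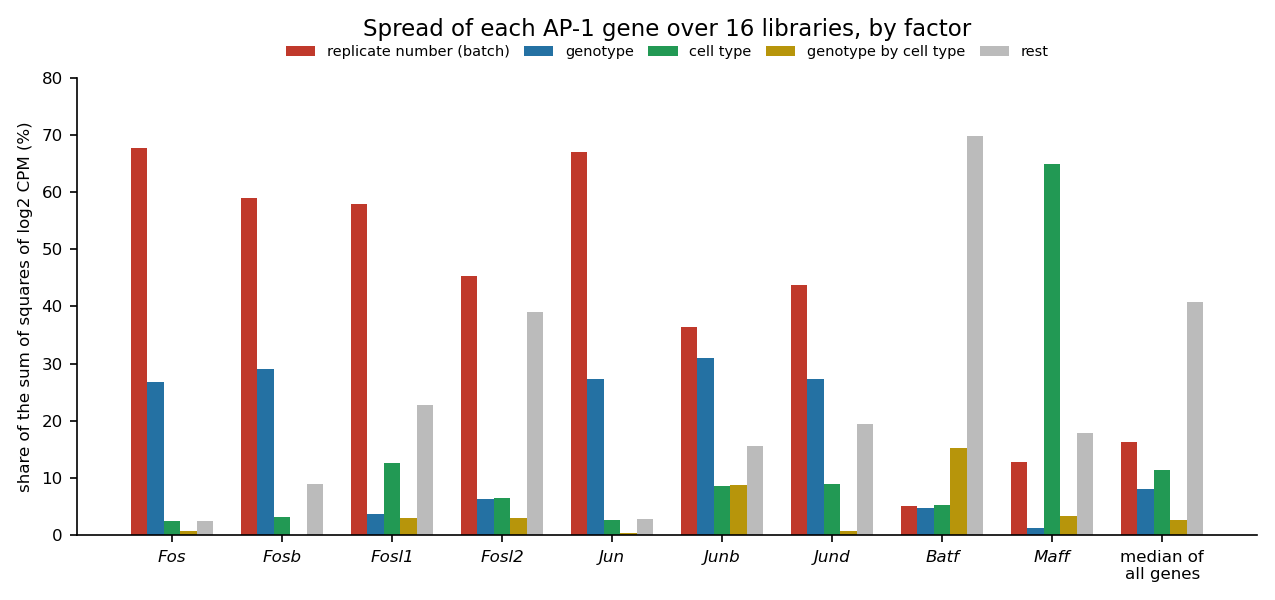
Share of the sum of squares of log2 CPM over 16 libraries (vertical axis, %) held by the replicate number, genotype, cell type, their interaction (genotype by cell type) and the rest, for each AP-1 gene and as the median over all genes tested. Red bars of Fos, Fosb and Jun stand at 67.7%, 59.0% and 67.0%, next to 16.2% for the median gene.

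In mutant against control HSC, 0 of the 9 members passed an adjusted p of 0.05 in edgeR's quasi-likelihood test without the batch, where 7.30% of all genes passed. At an unadjusted p under 0.05 in edgeR there was 1, Junb, where 3080 of 14179 genes lay under it. DESeq2 and limma-voom passed Junb at the adjusted threshold, where they passed 13.3% and 8.96% of all genes. Fos was left without an adjusted p by DESeq2. All 9 fitted values were negative, with a median of -1.14 against -0.06 over all genes. That median was -0.38 without control HSC replicate 1 and -1.69 without mutant HSC replicate 1, with all 9 values still negative in each. With the batch as a block, 4 members passed, all lower (Fos, Fosb, Jun and Junb), where 4.06% of all genes passed as lower. With the replicate 1 libraries of all groups also left out, 3 passed (Fos, Jun and Junb), where 4.46% of genes passed in either direction. Since the genes were selected on these values, the counts describe them and support nothing further.

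In mutant against control MPP3, 0 of 9 passed without the batch, where 0.0635% of all genes passed. In edgeR, DESeq2 and limma-voom 0 had an unadjusted p under 0.05, where 1960, 2063 and 1935 of 14179 genes did. DESeq2 left 1 of the 9 without an adjusted p in this and in each other comparison. The block gave 2, Fos and Jun, both lower, where 0.402% of all genes passed as lower. As in HSC, the members were selected on these values, so the counts support nothing further. Without the replicate 1 libraries the block gave 0, where 0.0211% of genes passed. At an unadjusted p under 0.05 it gave 3, where 1524 of 14209 genes lay under it. Fos then had -1.43 ± 0.28 and Jun -0.92 ± 0.19. The comparison of the mutant effect between the cell types gave 0 of 9 without the batch (0.0423% of all genes) and 0 with it (0.00705%). At an unadjusted p under 0.05 in edgeR there were 0 and 1, Junb, where 982 and 1084 of 14179 genes lay under it. Junb had a difference, MPP3 minus HSC, of 1.16 ± 0.98 without the block and 1.24 ± 0.51 with it.

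**Figure D3:**
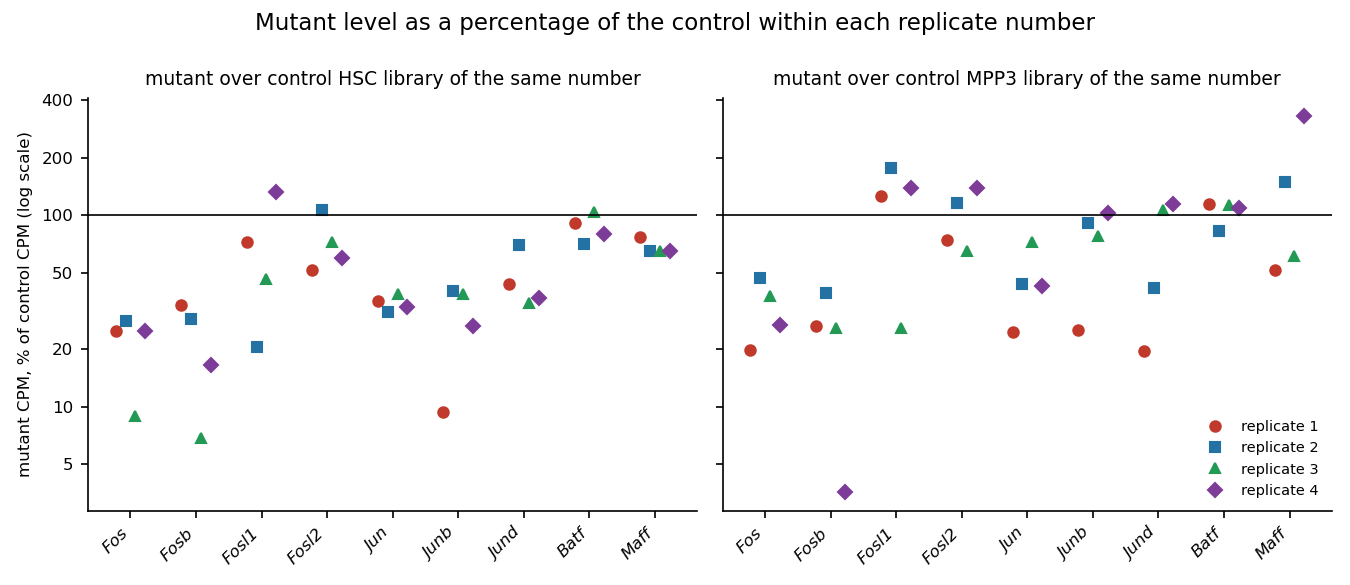
Mutant CPM as a percentage of the CPM in the control library of the same replicate number (vertical axis, log scale), for each AP-1 gene, with HSC on the left and MPP3 on the right and 1 point per replicate number. All points of Fos, Fosb and Jun lie below the line at 100%, and for Junb in MPP3 the points of replicates 2 to 4 lie between 77.7% and 103%.

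Between the cell types, members had lower mean levels in control MPP3 than in control HSC. All 9 fitted values were negative (median -0.59), next to 7162 of 14179 over all genes (median -0.0054). Fos, Fosb, Jun, Junb, Jund, Fosl1 and Maff were lower in 4 of 4 same-numbered pairs, a pattern whose share over all genes is not given here. Without the block this direction rested on control HSC replicate 1 for 4 members: with that library left out Fos was at 1.00, Fosb at 0.75, Jun at 0.31 and Jund at 0.05, 5 of 9 were negative and the median was -0.14. Leaving out control MPP3 replicate 1 brought the median to -1.47. Without the batch 0 of 9 passed, where 13.6% of all genes did. At an unadjusted p under 0.05 in edgeR there was 1, Maff, where 3751 of 14179 genes lay under it. DESeq2 and limma-voom passed Maff at the adjusted threshold, where they passed 17.2% and 15.4% of all genes. With the block 2 passed, Fos (-0.96 ± 0.24) and Junb (-1.31 ± 0.36), both lower, where 7.83% of all genes passed as lower. Junb and Maff also passed without the block once control MPP3 replicate 1 was left out, at -2.32 and -2.35, where 5.87% of all genes passed as lower. In mutants 0 of 9 passed, where 8.36% of all genes passed without the block and 9.59% with it, and the fitted values without it ran from -1.19 for Maff to 0.05 for Batf. Leaving out mutant HSC replicate 1 turned Fos to 1.09, Fosb to 1.13 and Jun to 0.35. With all libraries in and without the block, 0 had an unadjusted p under 0.05 with edgeR and 1 each with DESeq2 and limma-voom. Over all genes 2886, 2944 and 2960 of 14179 lay under it in mutants with these methods. These comparisons share libraries with those of mutant against control. Here too the members were selected on these values, and their counts are a description.

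**Figure D4:**
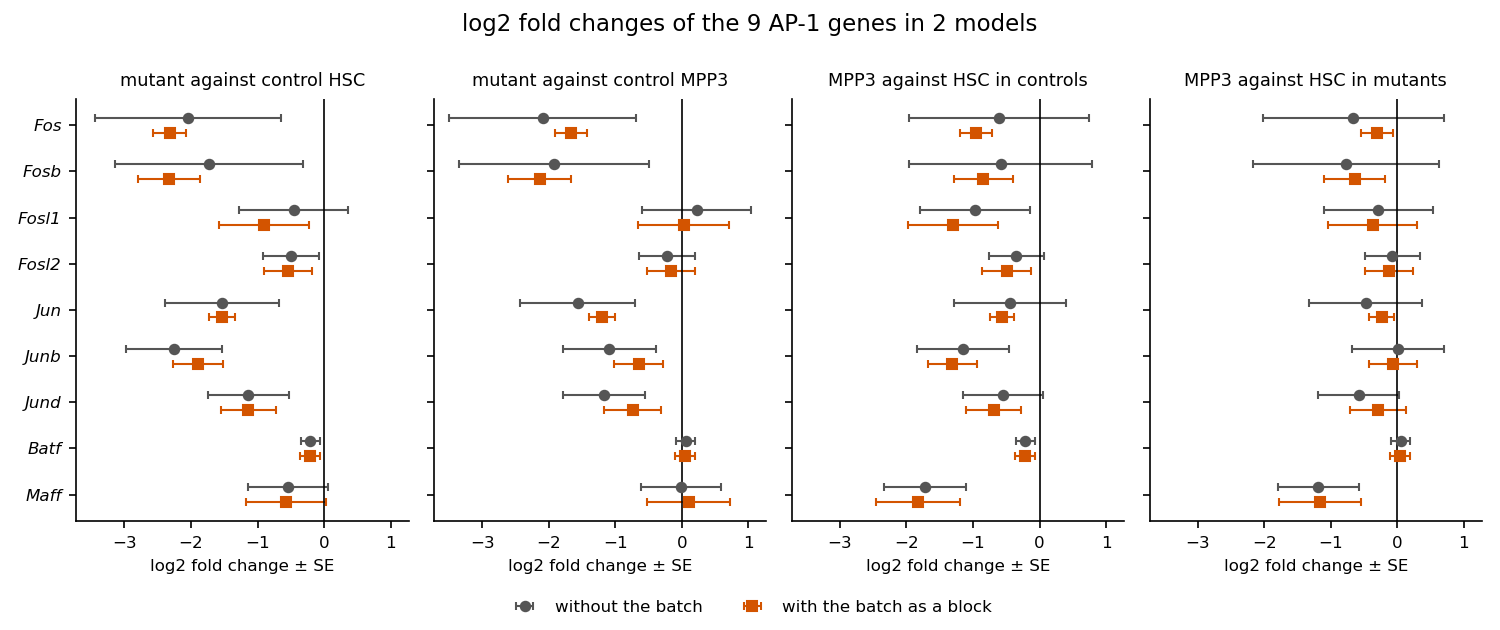
log2 fold change ± SE (horizontal axis) of each AP-1 gene in 4 comparisons, from the model of the 4 groups (grey circles) and from the model with the replicate number as a block (orange squares). The bar of Fos in mutant against control HSC narrows from 1.40 to 0.25 with the block.

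Other genes followed Fos over the libraries within the groups, with differences between group means set aside. Over the 16 libraries, deviations of log2 CPM from the group means were compared with those of Fos for the 10062 genes that averaged 5 CPM or more. Members came close: r was 0.95 for Fosb, 0.94 for Jun and 0.76 for Junb, against 0.27 for Fosl2 and -0.04 for Batf. Of the members below that level, Jund had 0.83, Fosl1 0.45 and Maff 0.38. The members were chosen by their CPM over the groups and replicate numbers, so likeness between them can follow from that choice and supports nothing further. Outside the family the 10 highest were Dusp1 (r = 0.953), a phosphatase gene of MAP kinases, Zfp36 (0.933), whose protein speeds the decay of AU-rich transcripts, and the zinc finger factor gene Egr1 (0.927), then Bcas2 (0.901), Hist1h2bg (0.890), Klf6 (0.883), Ppp1r15a (0.874), Dcun1d5 (0.867), Socs3 (0.859) and Ehd4 (0.859). Bcas2 (0.415 in HSC and 0.186 in MPP3) and Dcun1d5 (0.354 and 0.224) had positive log2 fold changes in the mutant, where Fos and the others of these 10 had negative ones. All these points share their libraries and batches. With the batch means also taken out, r was 0.45 for Dusp1, 0.53 for Zfp36, 0.52 for Egr1, 0.06 for Bcas2 and -0.19 for Socs3, and among members it was 0.60 for Fosb, 0.33 for Jun and 0.00 for Junb. These values rest on the 2.43% of the sum of squares of Fos that group and batch leave. Junb was most like the fast-response genes Ier2 (r = 0.959) and Ier3 (0.945) and then H2afj (0.936), and with batch means taken out r was still 0.93 for Ier2 and 0.88 for Ier3. Jun was most like Dusp1 (0.951), Zfp36 (0.911) and Ccnl1 (0.902), and Fosb like Dusp1 (0.921), Fam98b (0.904) and Tpr (0.898). For Jund the first was Ppp1r15a (0.889), for Fosl1 Hsd17b4 (0.878), for Fosl2 Paqr4 (0.903), for Batf Rxra (0.865) and for Maff Alg8 (0.848).

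Genes around AP-1 were read from 7 pathway lists of 125 genes, 111 of them tested. In mutant HSC 7 fell and 1 rose, in a comparison where 7.30% of all genes passed. In mutant MPP3 0 passed with edgeR or limma-voom and 3 with DESeq2 (which passed 2.73% of all genes). There 20 had an unadjusted p under 0.05 in edgeR, where 1960 of 14179 genes did. The lists were written with earlier results of these libraries known. Upstream, the MAP kinases moved little: of 24 tested, 1 rose and 1 fell in mutant HSC and 0 changed in mutant MPP3, with medians of -0.13 and -0.08. Map3k1, a kinase that feeds JNK, fell from 107 ± 4.79 to 70.2 ± 4.38 CPM in mutant HSC (log2 -0.61 ± 0.12, edgeR adjusted p = 0.00573), lower in 4 of 4 pairs, and rose from HSC to MPP3 in mutants by 0.77 ± 0.12 (edgeR adjusted p = 0.000465). Rps6ka3, the RSK2 kinase gene below ERK, rose in mutant HSC by 0.68 ± 0.19 (edgeR adjusted p = 0.0377). That call was lost without control HSC replicate 2 (0.108), 3 (0.0910) or 4 (0.0557) or mutant HSC replicate 1 (0.0723) or 4 (0.107).

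Of 15 factors that act on FOS and JUN promoters, 0 changed in the mutant of either cell type without the batch, and 2 fell in HSC with the block, Crtc2 (-0.49 ± 0.14, edgeR adjusted p = 0.0415) and Mef2d (-0.40 ± 0.12, edgeR adjusted p = 0.0488). Mef2c, which encodes a MEF2 factor, fell from HSC to MPP3 by 0.55 ± 0.11 in controls (edgeR adjusted p = 0.00291) and by 0.81 ± 0.11 in mutants (edgeR adjusted p = 0.000122). Among 8 tested dimer partners outside the members, 0 changed in the mutant, with medians of -0.24 in HSC and -0.20 in MPP3. Batf2 fell from HSC to MPP3 in controls by 1.87 ± 0.26 (edgeR adjusted p = 0.000102), from 29.4 ± 4.96 to 8.03 ± 2.12 CPM. Atf3, a partner induced by stress, reached 6.33, 0.948, 12.9 and 0.0862 CPM in replicate 1 of HSC (control, mutant) and of MPP3 (control, mutant), in that order, and at most 0.0300 CPM in any other library.

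Of 11 genes for the turnover of AP-1 proteins and for JNK phosphatases, 1 fell in mutant HSC. This was Trib2, a pseudokinase gene that steers proteins to the COP1 ubiquitin ligase, which fell from 25.2 ± 9.28 to 4.73 ± 0.76 CPM (log2 -2.41 ± 0.44, edgeR adjusted p = 0.00351) and was lower in 4 of 4 pairs. In mutant MPP3 it missed the threshold without the block (edgeR adjusted p = 0.0640, and 0.0412 without mutant MPP3 replicate 1) and passed with it (-2.36 ± 0.38, edgeR adjusted p = 0.0264) and in DESeq2 (adjusted p = 0.000243). Of 20 other fast-response genes, 3 fell in mutant HSC and all 20 fitted values were negative, with a median of -1.68 against -0.06 over all genes; in MPP3 0 passed and 16 were negative (median -1.03). Rhob, an endosomal GTPase gene, fell by 1.81 ± 0.42 (edgeR adjusted p = 0.0135), Dusp2 by 1.47 ± 0.38 (edgeR adjusted p = 0.0250) and Dusp6 by 0.96 ± 0.25 (edgeR adjusted p = 0.0269), each lower in 4 of 4 HSC pairs. Rhob lost its call without mutant HSC replicate 4 (0.0542). Dusp2 lost it without control HSC replicate 1 (0.0924) or mutant HSC replicate 1 (0.0700), 3 (0.0524) or 4 (0.0922), and Dusp6 without control HSC replicate 1 (0.0947) or 3 (0.0562) or mutant HSC replicate 2 (0.0983) or 3 (0.0691). With the block 11 of the 20 fell in mutant HSC and 1, Zfp36, in mutant MPP3, where 4.06% and 0.402% of all genes passed as lower. Replicate 1 was highest in all 4 groups for 11 of the 20, so they are not independent results. From HSC to MPP3 in controls 8 of 20 fell with the block, where 7.83% of all genes passed as lower, next to 1 without the block. That 1 was Ccn1, at 3.97, 0, 2.13 and 1.57 CPM in control HSC and without a count in all 4 control MPP3 libraries. Its call was lost without control HSC replicate 1 (0.0626) or 3 (0.0533) or without any 1 of the control MPP3 libraries (0.0628, 0.0672, 0.0688 and 0.0649), and limma-voom gave an adjusted p of 0.124.

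Among 21 tested genes reported as AP-1 targets, 1 fell in mutant HSC and 0 changed in mutant MPP3, with medians of -0.18 and -0.16. It was the chemokine gene Ccl3, which fell from 2.31 ± 1.39 to 0.273 ± 0.242 CPM (log2 -3.07 ± 0.84, edgeR adjusted p = 0.0352). The call was lost without control HSC replicate 1 (0.0570), 3 (0.0910) or 4 (0.0563) or mutant HSC replicate 1 (0.102), 2 (0.0583) or 4 (0.0895). From HSC to MPP3 in controls, 2 rose and 2 fell: Cd44 rose by 0.50 ± 0.08 (edgeR adjusted p = 0.000697) and Vim by 0.86 ± 0.17 (edgeR adjusted p = 0.0028), while the cyclin gene Ccnd1 fell by 1.15 ± 0.15 (edgeR adjusted p = 7.55e-05). In mutants 4 rose and 2 fell, with the metallothionein gene Mt1 lower by 1.06 ± 0.20 (edgeR adjusted p = 0.00263).

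Signs of handling and of other cells are given beside these values, and their part in the levels of the 9 genes was not tested. Of 12 tested heat shock and handling genes, 1 fell in mutant HSC, Dnajb4 (-0.81 ± 0.18, edgeR adjusted p = 0.0132), and the list's median there was 0.16. Their summed level was 7252 to 8649 CPM in HSC of the controls, against 7424 to 10150 CPM in those of the mutants, and replicate 1 was highest in the mutant groups and not in the control groups. Hspa8 and Hsp90ab1, with means of 3038 and 3059 CPM in control HSC, were the largest parts of these sums, which say little about the lower genes. Hspa1a had 21.1, 6.68, 10.6 and 1.52 CPM in control HSC replicates 1 to 4. It was highest in replicate 1 of both control groups and replicate 2 of both mutant groups, and lowest in replicate 4 of all 4 groups. Hsph1 was highest in replicate 3 of both control groups. The other fast-response genes summed to 7359 CPM in control HSC replicate 1 and 1333 to 1639 CPM in replicates 2 to 4, and to 4303 CPM in control MPP3 replicate 1 and 683 to 899 CPM in the others. In mutant HSC the sums were 1417 CPM in replicate 1 and 558 to 699 CPM in the rest, and in mutant MPP3 882 CPM and 459 to 699.9 CPM. The mitochondrial share of counts was 1.45% to 2.03% in control HSC and 0.924% to 1.37% in mutant HSC, which did not overlap, and 1.28% to 1.95% and 1.23% to 1.41% in MPP3.

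Stem cell markers also differed between the HSC groups. Of 9 HSC markers, 4 fell in mutant HSC and 0 changed in mutant MPP3: Mllt3 (-1.12 ± 0.13, edgeR adjusted p = 0.000163), Hlf (-0.82 ± 0.11, edgeR adjusted p = 0.000494), Procr (-1.08 ± 0.22, edgeR adjusted p = 0.00742) and Fgd5 (-1.51 ± 0.36, edgeR adjusted p = 0.0164). The Fgd5 call was lost without control HSC replicate 2 (0.0673) or mutant HSC replicate 2 (0.0569) or 4 (0.0629). Of 8 MPP3 markers, 1 rose in mutant HSC, Cd48, at 1.74 to 3.20 CPM in the controls and 4.91 to 8.67 CPM in the mutants (edgeR adjusted p = 0.000763), and 7 had negative fitted values.

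Markers of T and NK cells summed to 13.1 to 24.4 CPM in HSC of the controls, against 3.12 to 13.0 CPM in those of the mutants, and to 6.91 to 23.3 and 3.84 to 4.19 CPM in control and mutant MPP3. Of their 6 tested genes, 3 had negative fitted values in mutant HSC and 6 in mutant MPP3, with 0 past edgeR's threshold; Cd3e, Cd3g, Gzma and Ncr1 had no count in either HSC group. The B cell markers summed to 163 to 677 CPM in control MPP3 and 97.2 to 171 CPM in mutant MPP3, with 7 of 7 tested genes negative and 0 past the threshold (1 with the block, Igkc at -6.00, edgeR adjusted p = 0.0208), and to 72.5 to 95.3 and 53.4 to 70.6 CPM in control and mutant HSC, where Pax5 had no count. Of the 7, Cd79b fell in mutant HSC (-0.42 ± 0.12, edgeR adjusted p = 0.0414), a call lost with 13 of the 16 libraries left out singly (up to 0.137, without control HSC replicate 4). Neutrophil markers ranged over 2.04 to 295 CPM over all libraries and those of monocytes and macrophages over 23.6 to 148 CPM. Replicate 1 had the highest sum of monocyte and macrophage markers in control HSC, and in no group for neutrophil, B cell, T and NK cell, erythroid, megakaryocyte, or stroma and endothelium markers.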

How the data were processed

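RNA was measured in 16 mouse libraries. Per the labels' protocols, 10 ng of total RNA per library was amplified with a SMARTer Ultra Low kit and read as 150-base pairs. The submitters' processing notes name cutadapt 4.0, FastQC, HISAT2 and Salmon with GRCm38 (mm10); neither settings nor strand are stated there. Per the file headers, each deposited table gives a gene's estimated count from Salmon (an expected count, not normalized), and these were rounded and tested. TPM, which the authors deposited in the same tables and which allow for gene length, served to order genes within a group. Effective lengths, also deposited in bases, entered 1 alternative as offsets.

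Symbols came from GENCODE M21. Of 31716 rows per table, 29806 gene rows were used and 1910 transcript rows left out except in 1 alternative. The filter of edgeR 4.0.16 (filterByExpr by group, R 4.3.3) kept 14179 genes, which were fitted with glmQLFit (robust) and glmQLFTest in 1 model of 4 groups with TMM normalization and Benjamini-Hochberg adjustment over all of them; an adjusted p under 0.05 was a call. The SE is the log2 fold change over the square root of F. The fit was tested on simulated data. CPM used TMM-scaled totals and log2 CPM a prior count of 2. Totals of 33.4 to 41.5 (in units of 1e6 counts) limit precision for genes near 1 CPM. The members, the 7 pathway lists and the marker lists were chosen with earlier results of these data known. Named genes were the 9 members, up to 4 of each list and comparison by smallest adjusted p (here mainly those whose call held with every library left out), the 10 genes most like Fos and up to 3 most like each other member, and sort markers. Atf3, Crtc2, Mef2d, Zfp36, Hspa8, Hsp90ab1, Hspa1a and Hsph1 in the lists were named after their values were seen. Promoters came from the RefSeq table of GRCm38.p6.

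The labels number the batches by replicate, so same-numbered libraries pair by label: over 24 same-numbered pairs, r of their deviations from the group mean ran from -0.03 to 0.16. The alternatives tried were a replicate block, size factors by RLE, limma-voom (limma 3.58.1), DESeq2 1.42.0, no filter, effective-length offsets, only the groups compared, transcript rows added, mutant HSC replicates 1 and 4 (the most alike pair) left out, and each library left out in turn. Leaving out the replicate 1 libraries of all groups, with and without the block, was chosen after seeing the data.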

Additional observations from a re-analysis of the deposited data

Results flagged for a closer look

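In 36 groups of 4 libraries (9 genes in 4 groups), 11 held a library further from the others than Dixon's 95% limit allows. Chance flags about 1 in 20 groups, but that rate is no yardstick here: the genes were chosen by these values over the replicate numbers, and the groups share libraries across genes. Of the 11, 10 are replicate 1. For Fos these were replicate 1 of control HSC (3266 CPM), mutant HSC (816 CPM) and control MPP3 (2294 CPM), and for Fosb replicate 1 of the same groups (114, 38.8 and 82.0 CPM). For Junb they were replicate 1 of control HSC (919 CPM) and control MPP3 (481 CPM), and for Jund the same libraries (14.0 and 11.2 CPM). The remaining one was Maff in control HSC replicate 2, which lay low at 1.51 CPM.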

How the results depend on the processing

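Of the 9 AP-1 genes 0 passed in the model without the batch. With the replicate block 4 passed in mutant HSC, 2 in mutant MPP3 and 2 in MPP3 against HSC in controls. DESeq2 and limma-voom each passed 1 in mutant HSC and 1 in controls. Without the replicate 1 libraries 1 passed in controls, where 1267 of 14209 genes passed. With the block as well 3 passed in mutant HSC and 2 in controls, where 634 and 1426 of 14209 genes passed. Leaving out 1 library gave 0 to 1 in mutant HSC and 0 to 2 in controls, and 0 in the other 3 comparisons. Leaving out control MPP3 replicate 1 gave both highest counts, where 1045 and 1608 of 14506 genes passed. The members were selected on these values, so their counts support nothing further.

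Pathway genes that passed in mutant HSC numbered 8, against 21 with the replicate block, 16 with DESeq2, 3 without mutant HSC replicates 1 and 4, and 13 with the block and without replicate 1; with 1 library left out they ranged from 4 to 11, lowest without mutant HSC replicate 4 and at 5 without mutant HSC replicate 1 or control HSC replicate 3. In mutant MPP3 they were 0, against 2 with the block, 3 with DESeq2 and 0 to 1 (1 without mutant MPP3 replicate 1). In controls they were 13, against 21 with the block, 20 with DESeq2 and 6 to 17 (6 without control MPP3 replicate 3). In mutants they were 11, against 7 in a fit of the groups compared alone, 6 without mutant HSC replicates 1 and 4, 6 without replicate 1 with or without the block, and 6 to 12 (6 without mutant HSC replicate 2 or 4).

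Over all genes, mutant HSC gave 1035 calls, against 1668 with DESeq2, 266 without mutant HSC replicates 1 and 4, 457 without replicate 1, 634 with the block as well, and 605 to 1412 with 1 library left out (605 without mutant HSC replicate 1, 622 without its replicate 4 and 634 without control HSC replicate 2). Mutant MPP3 gave 9, against 82 with the block, 386 with DESeq2, 1 without a filter, 16 with length offsets, 0 in a fit of these groups alone, 1 without mutant HSC replicates 1 and 4, 2 without replicate 1, 3 with the block as well, and 1 to 209, highest without mutant MPP3 replicate 3. MPP3 against HSC gave 1926 in controls and 1267 without replicate 1 (1396 to 2184 with 1 library left out), and 1186 in mutants, 776 without mutant HSC replicates 1 and 4, and 742 without replicate 1 (917 to 1177). The difference of the mutant effect gave 6, against 1 with the block, 78 with DESeq2, 0 without mutant HSC replicates 1 and 4, 0 without replicate 1 with or without the block, and 1 to 5 with 1 library left out.

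Of the 10 genes most like Fos, 0 were among the 10 highest once batch means were taken out (replicate block), and 4 to 9 were with 1 library left out, fewest without control MPP3 replicate 1 (4) and mutant HSC replicate 2 (6). The causes were not tested. Fosl1, Fosb and Maff, with 7 to 13 counts in their lowest libraries, are limited by depth.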
